A study of Homo sapiens with 32 samples.

Results

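The dual-specificity MAP kinase phosphatases are 10 genes (DUSP1, DUSP2, DUSP4, DUSP5, DUSP6, DUSP7, DUSP8, DUSP9, DUSP10 and DUSP16), taken by gene name from the tables of read counts. All 10 were found among the 57773 genes listed. RNA was sequenced from HEK293 cells, an established human embryonic kidney line, that had been transiently transfected with an expression plasmid for the angiotensin II receptor AT1R. All groups, controls included, carried this plasmid and were moved to serum-free medium before stimulation. Cells received no stimulus (control), 1 nM angiotensin II (AII), 10 µg/L EGF or both (AII+EGF) for 6 h or 24 h. Each group had 4 libraries, except AII+EGF after 24 h, of which 3 were used. The receptor came from a transient transfection, and the share of cells that took up the plasmid is not given in the sources used here.

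These phosphatases remove phosphate from both the threonine and the tyrosine in the activation loop of MAP kinases and so switch the kinases off. DUSP4 and DUSP5 are nuclear, and DUSP6, DUSP7 and DUSP9 are cytoplasmic or found in both compartments. These 5 genes are grouped as ERK-directed, although DUSP4 also acts on JNK. DUSP8, DUSP10 and DUSP16 prefer JNK and p38, and DUSP1 and DUSP2 are inducible nuclear phosphatases with broader substrates. Several of them are transcribed in response to growth factors and act as feedback inhibitors of the pathway that induces them.

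Levels are in FPM, counts per 1000000 counts of a library whose size was scaled with TMM factors. A gene passed the test at a Benjamini-Hochberg adjusted p under 0.05 in edgeR's quasi-likelihood test, adjusted over all 18618 genes tested after 6 h or 22174 after 24 h. After 6 h, 8 of the 10 phosphatases were above the filter on low counts, and after 24 h, 9 were. Library totals were 3881841 to 8540815 counts after 6 h and 6646227 to 33070903 after 24 h. Protein-coding genes held 81.4% to 84.7% of counts after 6 h but 20.8% to 63.4% after 24 h, when U1 small nuclear RNA took 8.90% to 57.2%. The plasmid receptor gene AGTR1 was at 950 to 1568 FPM after 6 h and 369 to 685 FPM after 24 h. The HEK293 markers NEFM, NEFL, VIM and CDH2 were abundant. Others taken as HEK293 markers were not: after 6 h KRT8 was at 7.35 to 15.5 FPM and KRT18 at 2.10 to 8.40 FPM. PAX2 had 0 to 5 counts per library after 6 h. The leukocyte marker PTPRC had at most 2 counts and CD3E had 0 after 6 h, and MYH11, a smooth muscle marker, was at 10.4 to 21.3 FPM. Nothing in the labels says that libraries came from separate cultures, so p-values measure the spread between libraries, which may be technical. In bulk RNA, fewer cells expressing a gene and less of its RNA per cell cannot be told apart.

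In unstimulated cells after 6 h, the level per kilobase of exon differed widely between the phosphatases. DUSP16 had the highest level (9.91 ± 0.665 FPM per kb, SD, n = 4), followed by DUSP1 (9.03 ± 1.55), DUSP7 (6.93 ± 0.609), DUSP9 (6.80 ± 2.70) and DUSP8 (6.19 ± 0.284). The ranges of neighbours among these 5 overlapped. DUSP10 (1.60 ± 0.363 FPM per kb) and DUSP4 (1.31 ± 0.151) were lower and overlapped each other. DUSP5 (0.703 ± 0.111), DUSP6 (0.230 ± 0.135) and DUSP2 (0.0214 ± 0.0429) followed, each below the range of the one before. DUSP6 (2 to 8 counts) and DUSP2 (0 or 1 count) were below the filter on low counts, so their place is uncertain. Per kilobase, the nuclear ERK phosphatases DUSP4 and DUSP5 were thus among the weakly expressed members, while the ERK-directed DUSP7 and DUSP9 were not. In FPM not divided by exon length, DUSP4 (mean 9.50) was above DUSP10 (4.53), so their order depends on the lengths used. After 24 h the order in control was similar at its ends, with DUSP16 at 5.27 ± 0.672 FPM per kb and DUSP2 at 0.0360 ± 0.0720.

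EGF for 6 h raised 2 phosphatases, both ERK-directed. DUSP5, a nuclear ERK phosphatase, rose 3.04-fold, and DUSP4, the other nuclear member of its class, rose 1.73-fold. The 6 other phosphatases tested did not pass the test. Of the 18618 genes tested, 5.97% passed in this comparison.

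DUSP5 was at 1.85, 1.59, 1.53 and 2.15 FPM in the control libraries (8 to 13 counts). With EGF it was at 4.28, 6.87, 5.05 and 5.58 FPM (25 to 46 counts), and with AII+EGF at 6.43, 5.81, 6.59 and 6.62. Every library with EGF or AII+EGF was above every control library, as for 6.61% and 6.77% of all genes. The log2 change with EGF was 1.60 (SE 0.26, edgeR adjusted p = 0.00036), and with AII+EGF it was 1.83 (SE 0.25, edgeR adjusted p = 5.55e-05). Leaving out each library in turn gave log2 changes of 1.48 to 1.72 for EGF. At each time point the 4 conditions recur in the lower and in the higher library numbers, called library series here. The labels do not name these as batches, and the numbers break between them only after 24 h. Within the lower and the higher series, the difference on the log2(FPM + 0.5) scale was 1.42 and 1.32 with EGF and 1.58 and 1.61 with AII+EGF. The gene lies on the plus strand at GRCh37 chromosome 10, positions 112257665 to 112271291. Reads could also fall on its pseudogene DUSP5P1, which had 21 to 76 counts and a log2 change with EGF of 0.12 (SE 0.22, edgeR adjusted p = 0.82). With AII+EGF the change of DUSP5P1 was larger, 0.62 (SE 0.22, edgeR adjusted p = 0.10), and did not pass.

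DUSP4 was at 10.9, 9.09, 9.77 and 8.27 FPM in control and at 16.8, 17.6, 14.5 and 16.4 FPM with EGF. With AII+EGF its 4 libraries held 16.8, 20.3, 12.7 and 21.1 FPM. Neither stimulated group overlapped control, but the AII+EGF libraries were more spread out than the EGF libraries. The log2 change was 0.79 with EGF (SE 0.18, edgeR adjusted p = 0.0074) and 0.91 with AII+EGF (SE 0.18, edgeR adjusted p = 0.0022). Within the library series, the difference was 0.76 and 0.75 with EGF on the log2(FPM + 0.5) scale. DUSP4 lies on the minus strand at GRCh37 chromosome 8, positions 29190581 to 29208201.

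AII+EGF also raised DUSP4 and DUSP5 and no other phosphatase after 6 h, where 6.10% of all genes tested passed. DESeq2 gave 2 phosphatases in either comparison as well. Per kilobase, DUSP4 (2.44 ± 0.524 FPM per kb, n = 4) and DUSP5 (2.51 ± 0.148) were then at a like level, though they had differed in control.

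**Figure D1:**
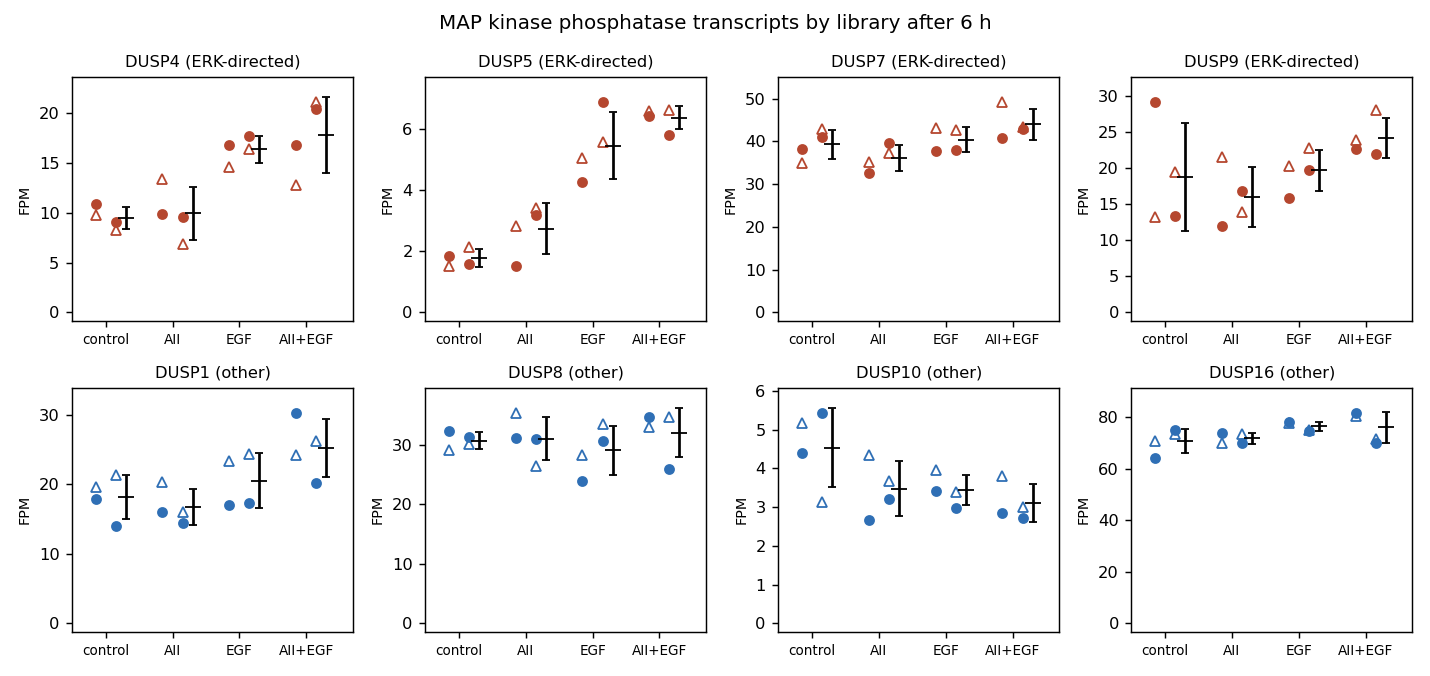
Level of each phosphatase above the filter after 6 h in FPM (vertical axes, linear, each panel to its own scale) in control, AII, EGF and AII+EGF libraries. Filled circles and open triangles are libraries of the lower and higher library numbers, and bars give mean ± SD (n = 4). DUSP5 and DUSP4 with EGF or AII+EGF sit above every control library, while the groups of the other 6 overlap control.

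The remaining ERK-directed phosphatases did not pass. DUSP7 was at 35.1 to 43.0 FPM in control, while the EGF libraries held 37.8 to 43.1 and the AII+EGF libraries 40.7 to 49.2 FPM, and the groups overlapped. Its log2 change was 0.037 (SE 0.093) with EGF and 0.16 (SE 0.09, edgeR adjusted p = 0.36) with AII+EGF. DUSP9 was at 29.1, 13.4, 13.2 and 19.5 FPM in control and at 22.7, 22.0, 23.9 and 28.1 FPM with AII+EGF. Here 1 control library was above all AII+EGF libraries and the other 3 were below them. The log2 change with AII+EGF was 0.39 (SE 0.20, edgeR adjusted p = 0.29), and 0.66 (adjusted p = 0.022) without control replicate 1, so that library decides the call.

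DUSP6, a cytoplasmic ERK phosphatase and a familiar ERK target, was below the filter. Its counts were 2 to 8 in control and 3 to 6 with AII. The EGF libraries held 5 to 11 counts and the AII+EGF libraries 5 to 18. Without a filter, its log2 change with AII+EGF was 1.05 (SE 0.50, edgeR adjusted p = 0.38), and the AII+EGF libraries overlapped control. Its exons share 1105 bases with a non-coding gene on the opposite strand (ENSG00000274021), and the strand setting of the counting is not stated.

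Among the other phosphatases, none passed with EGF or AII+EGF against control after 6 h. DUSP1, the inducible nuclear phosphatase, was at 17.8, 14.04, 19.5 and 21.3 FPM in control, and 16.9, 17.3, 23.4 and 24.4 FPM with EGF. With AII+EGF the libraries held 30.2, 20.2, 24.2 and 26.2 FPM. The groups overlapped, with only the highest control library above the lowest AII+EGF library. The log2 change was 0.18 (SE 0.16) with EGF and 0.47 (SE 0.16, edgeR adjusted p = 0.080) with AII+EGF. This call depended on the settings, with an edgeR adjusted p of 0.015 without the filter on low counts, 0.032 with the series fitted as a block, and 0.046 without AII+EGF replicate 2. DUSP10, a JNK and p38 phosphatase, was at 3.14 to 5.42 FPM in control. It held 2.99 to 3.95 FPM in the EGF libraries and 2.72 to 3.81 FPM in those with AII+EGF. Its log2 change was -0.54 (SE 0.24, edgeR adjusted p = 0.22) with AII+EGF, and the groups overlapped. DUSP8 (29.1 to 32.4 FPM in control) and DUSP16 (64.1 to 74.8 FPM) had log2 changes of -0.069 and 0.11 with EGF. With AII+EGF they had 0.067 and 0.10. For DUSP16 the 95% interval of the EGF change was -0.043 to 0.26. DUSP8 has pseudogenes, among which DUSP8P5 had 15 to 75 counts, so its reads may also be split. DUSP2 had 0 or 1 count in every library after 6 h, under the 3 counts taken as the floor.

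Set side by side, the 4 ERK-directed genes tested after 6 h had a median log2 change of 0.44 with EGF and 0.65 with AII+EGF. The 4 others had 0.02 and 0.08, and all genes tested had -0.012 and -0.014. All 4 ERK-directed changes were above 0 in both comparisons, and so were 2 of the 4 others with EGF and 3 with AII+EGF, against 48.0% and 47.4% of all genes. With EGF the direction of DUSP7 and DUSP9 was not stable. Leaving out control replicate 3 gave -0.010 for DUSP7, and leaving out control replicate 2 gave -0.036 for DUSP9. Within the lower library series they were at -0.061 and -0.16, and within the higher at 0.14 and 0.41, on the log2(FPM + 0.5) scale. With DESeq2 or without the filter on low counts, the ERK-directed median with EGF was 0.33 or 0.34 and that of the others -0.065 or -0.047. These medians describe a few genes, and the difference between the classes was not tested. The median of 0.44 rests on 2 genes that passed and 2 that did not. The summed level of the ERK-directed genes, to which DUSP7 gave the most, was 60.0 to 81.4 FPM in control. It was 75.6 to 88.8 FPM in the EGF libraries and 88.3 to 102 FPM in the AII+EGF libraries. The sum of the other genes was 119 to 128 FPM in control, 122 to 136 FPM in EGF libraries and 119 to 149 FPM in AII+EGF libraries. Only the ERK-directed sum with AII+EGF was free of overlap with control. Among single genes, 6.77% had every AII+EGF library above every control library. DUSP7 and DUSP9, both in that sum, each overlapped control and did not pass, and the sums were not tested.

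AII alone changed no phosphatase after 6 h, and 0.00% of all genes passed in edgeR (845 at an unadjusted p under 0.05). DESeq2 passed 0 phosphatases too. DUSP5 was at 1.52, 3.20, 2.84 and 3.41 FPM with AII. The lowest of these lay below every control library and the other 3 above, and the log2 change was 0.61 (SE 0.29, unadjusted p = 0.0495, edgeR adjusted p = 0.99). DUSP4 was at 6.82 to 13.3 FPM with AII (log2 change 0.10, SE 0.19) and DUSP1 at 14.4 to 20.3 FPM (-0.12, SE 0.17). The AII groups of both overlapped control.

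When AII was added to EGF, no phosphatase passed either (0 by DESeq2 as well, and 0.00% of all genes in edgeR, with 1352 at an unadjusted p under 0.05). DUSP5 differed by 0.22 on the log2 scale (95% interval -0.21 to 0.65) and DUSP4 by 0.12 (-0.22 to 0.45). DUSP1 had a difference of 0.29 (-0.02 to 0.60, edgeR adjusted p = 0.68). The interaction of AII and EGF, the departure of AII+EGF from the sum of both effects on the log2 scale, passed for 0 of the 8 phosphatases and for 0.00% of all genes (1491 at an unadjusted p under 0.05). For DUSP1 it was 0.41 (SE 0.22) and for DUSP5 -0.38 (SE 0.36).

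EGF added to AII raised 3 phosphatases after 6 h, in a comparison in which 5.93% of all genes passed. DUSP5 rose by 1.22 on the log2 scale (SE 0.24, edgeR adjusted p = 0.0021), and no AII+EGF library overlapped the AII libraries. DUSP4 rose by 0.81 (SE 0.18, edgeR adjusted p = 0.0057), although its highest AII library, 13.3 FPM, was above its lowest AII+EGF library, 12.7 FPM. DUSP1 rose by 0.59 (SE 0.16, edgeR adjusted p = 0.027), with groups that overlapped by 1 library on each side. This call was lost without AII replicate 1, 2 or 4 or AII+EGF replicate 1 or 4, with adjusted p of 0.081, 0.107, 0.052, 0.094 and 0.068. DUSP7 and DUSP9 did not pass (log2 differences of 0.29 and 0.58, edgeR adjusted p = 0.075 and 0.094), although every AII+EGF library was above every AII library. The same was found for 7.12% of all genes. DUSP9 passed when control replicate 1 (adjusted p = 0.025) or AII replicate 3 (0.033) was left out. These AII+EGF libraries are also those of the comparison with control.

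The promoters of 8 of the 10 phosphatases are in the RefSeq table for GRCh38.p14, in 10 windows of 250 bases before the transcript start. DUSP4 and DUSP5 have no entry. The cyclic AMP response element core TGACGT, searched on both strands, was found in the windows of DUSP1 and DUSP8, against 7.10% of 35116 promoters. They are shown because DUSP1 is the phosphatase outside the ERK-directed class that rose with EGF in the presence of AII, and DUSP8, with the same letters, did not pass. Capitals mark the core and its overlap on the other strand.
DUSP1, chr5:172771196-172771445, minus strand: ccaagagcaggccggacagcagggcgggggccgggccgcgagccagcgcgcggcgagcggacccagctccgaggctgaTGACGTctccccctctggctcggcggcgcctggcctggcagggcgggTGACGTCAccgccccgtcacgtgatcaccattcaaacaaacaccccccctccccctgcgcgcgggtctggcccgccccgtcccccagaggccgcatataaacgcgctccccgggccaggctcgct
DUSP8, chr11:1572272-1572521, minus strand: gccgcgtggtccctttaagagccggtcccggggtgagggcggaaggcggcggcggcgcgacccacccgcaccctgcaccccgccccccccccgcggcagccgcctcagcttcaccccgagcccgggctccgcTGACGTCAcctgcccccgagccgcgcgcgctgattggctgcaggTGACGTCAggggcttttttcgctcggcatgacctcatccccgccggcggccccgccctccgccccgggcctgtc
The AP-1 site TGANTCA (6.57% of all promoters), the ETS core CCGGAA (14.5%) and the CArG box (1.16%) were in none of the 10 windows. A match describes letters only, and no match says only that these letters are not in the window.

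After 24 h, 0 of the 9 phosphatases tested passed in any comparison, by edgeR or DESeq2. At an unadjusted edgeR p under 0.05, DUSP1 was found with EGF, and DUSP1 and DUSP5 with AII+EGF against AII. Of all genes, 8.48% with EGF and 4.28% with AII+EGF against AII were under it. With EGF, 7 of the 22174 genes tested passed (0.0316%) and 1881 had an unadjusted p under 0.05. With AII+EGF, 6 passed (0.0271%) and 1198 had an unadjusted p under 0.05. Of all genes, 0.0451% passed with AII+EGF against AII, and 0.00% with AII, with AII+EGF against EGF and for the interaction. Counts were simulated for EGF against control only, with changed genes drawn from all genes tested. After 24 h, 42.1% of genes changed 2-fold and 2.59% of those changed 1.5-fold were recovered, against 79.7% and 48.7% after 6 h. These shares do not cover the other comparisons or the level of a single phosphatase.

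DUSP5 was at 1.69, 0.833, 1.43 and 0.287 FPM in control after 24 h and at 1.96, 0.929, 1.52 and 1.58 FPM with EGF. The groups overlapped, and the log2 change was 0.50 with a 95% interval of -0.73 to 1.73. DUSP4 was at 6.93, 6.67, 5.36 and 6.90 FPM in control and at 6.93, 8.28, 10.4 and 8.62 FPM with EGF. Its lowest EGF library lay just above the highest control library, and the log2 change was 0.41 (SE 0.21, edgeR adjusted p = 0.61). Such separation was found for 2.35% of all genes. DUSP6 had 1 to 14 counts in control and 0 to 10 with AII. It had 0 to 22 counts in EGF libraries and 8 to 18 in AII+EGF libraries, with a log2 change of 0.67 (SE 1.02) with EGF.

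Outside the ERK-directed class, DUSP1 was at 7.52, 9.05, 7.12 and 5.92 FPM in control after 24 h and at 12.1, 14.01, 8.82 and 9.45 FPM with EGF. With AII+EGF, of which 3 libraries were used, it was at 10.2, 10.5 and 8.52 FPM. The lowest EGF library was below the highest control library, and the log2 change with EGF was 0.58 (SE 0.24, edgeR adjusted p = 0.50). DUSP10 was at 2.30 to 4.05 FPM in control and at 4.97, 4.95, 4.79 and 5.22 FPM with EGF. Every EGF library was above every control library, as for 2.35% of all genes. Its log2 change was 0.59 (SE 0.29, edgeR adjusted p = 0.59). DUSP16 had 0.23 (SE 0.12) and DUSP8 0.22 (SE 0.23) with EGF. The EGF libraries of both overlapped control.

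**Figure D2:**
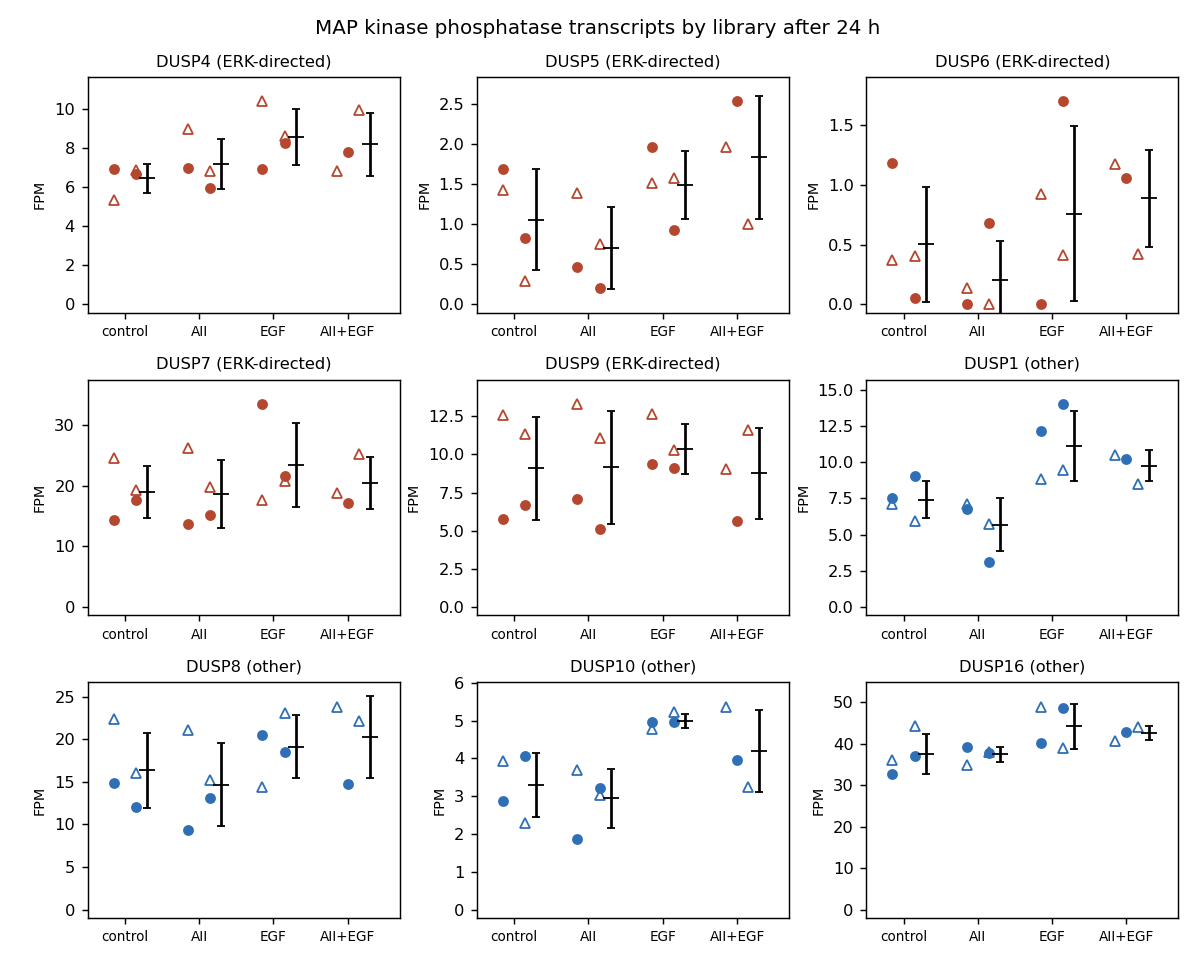
Level of each phosphatase above the filter after 24 h in FPM (vertical axes, linear, each panel to its own scale) in control, AII and EGF (n = 4) and AII+EGF libraries (n = 3). Filled circles and open triangles are libraries of the lower and higher library numbers, and bars give mean ± SD, cut at the lower axis limit for DUSP6. Every EGF library of DUSP10 (4.79 to 5.22 FPM) is above control (2.30 to 4.05 FPM), as for 2.35% of all genes. No phosphatase passed the test.

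The median log2 change after 24 h with EGF was 0.41 for the 5 ERK-directed genes and 0.41 for the 4 others, against -0.0032 for all genes. The median of the others was 0.23 with DESeq2 and 0.22 without the filter on low counts. With AII+EGF the medians were 0.35 and 0.31. Leaving out AII+EGF replicate 4 took the ERK-directed median to 0.18, and leaving out AII+EGF replicate 3 took that of the others to 0.19. All 9 genes were above 0 with EGF (49.6% of all genes were), and 8 of 9 with AII+EGF (49.1%), DUSP9 being at -0.057. With EGF, DUSP6 turned to -0.036 without EGF replicate 2. Within the higher library series, DUSP7, DUSP8 and DUSP9 were below 0 with EGF (-0.18, -0.052 and -0.061 on the log2(FPM + 0.5) scale). In the lower series they were at 0.75, 0.53 and 0.54. With AII+EGF, DUSP7 turned below 0 without control replicate 1 or AII+EGF replicate 4, and DUSP9 turned above 0 without AII+EGF replicate 1 or control replicate 3 or 4. These 3 genes were lower in the lower series of the control libraries.

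In control after 24 h, DUSP9 was at 5.75 and 6.67 FPM in the lower library numbers and at 12.6 and 11.3 FPM in the higher, and DUSP7 at 14.3 and 17.6 against 24.6 and 19.3 FPM. DUSP8 was at 14.9 and 12.1 against 22.4 and 16.03 FPM. With EGF the order of DUSP7 was the opposite, with 33.5 and 21.7 FPM in the lower series and 17.7 and 20.8 FPM in the higher. The columns named as filtered, 7 of 7 in the lower series and 1 of 8 in the higher, nearly coincide with the series, and their part in these values was not tested. With the series fitted as a block, 0 phosphatases passed after 24 h.

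The difference between the effects after 24 h and 6 h was tested in a joint fit of 21932 genes, in which 0.173% of genes passed for EGF and 0.123% for AII+EGF. None of the 9 phosphatases passed. The effect of EGF on DUSP5 was 1.10 lower on the log2 scale after 24 h (difference -1.10, SE 0.61, edgeR adjusted p = 0.56), and on DUSP10 it was higher (0.99, SE 0.37, edgeR adjusted p = 0.32).

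**Figure D3:**
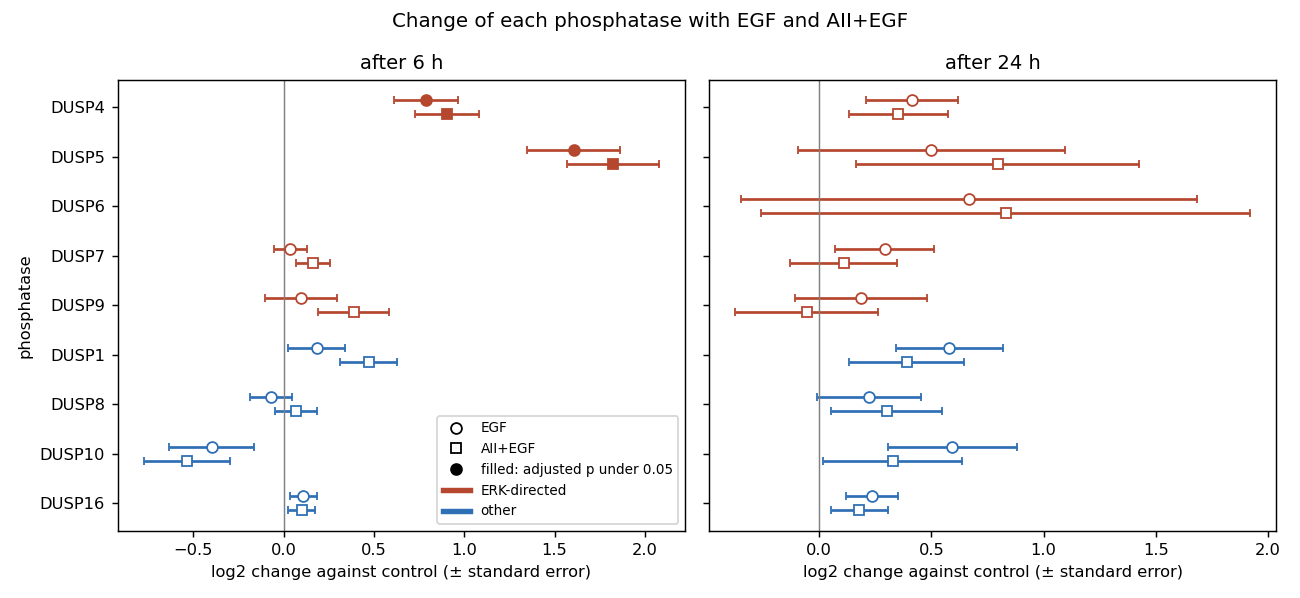
Log2 change against control with its standard error (horizontal axis) for each phosphatase after 6 h (left) and 24 h (right), for EGF (circles) and AII+EGF (squares), with ERK-directed genes in red and others in blue. Filled symbols passed the test. After 6 h only DUSP4 (0.79 and 0.91) and DUSP5 (1.60 and 1.83) are filled, and after 24 h no symbol is.

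The rest of the MAP kinase pathway was read from lists of genes, chosen with earlier results of these data known. Of all genes, 5.97% passed with EGF after 6 h and 6.10% with AII+EGF. Of 10 MAP kinases, 0 passed with EGF or AII+EGF after 6 h. Of 7 MAP kinase kinases, MAP2K1, which activates ERK, rose with EGF (0.42, SE 0.11, edgeR adjusted p = 0.021). MAP2K6, which activates p38, fell with EGF (-0.83, SE 0.17, edgeR adjusted p = 0.0035). Of 8 other phosphatases that act on MAP kinases, 5 were tested and 0 passed. Of the atypical dual-specificity phosphatases, 8 of 14 were tested. DUSP14 rose with EGF (0.47, SE 0.12, edgeR adjusted p = 0.021) and with AII+EGF (0.46, edgeR adjusted p = 0.029). DUSP22 fell with EGF (-0.36, SE 0.09, edgeR adjusted p = 0.019) but did not pass with AII+EGF (-0.25, edgeR adjusted p = 0.13).

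Of 8 ERK output genes, 7 were tested and 6 passed with either stimulus after 6 h, 5 higher and 1 lower. Of all genes, 5.97% passed with EGF and 6.10% with AII+EGF. Because this list was chosen with earlier results of these data known, its share describes these genes and is no test of the pathway. SPRY2, a feedback inhibitor of receptor tyrosine kinase signalling, rose with EGF from 10.2 to 17.3 FPM (log2 change 0.75, SE 0.14, edgeR adjusted p = 0.0021). CCND1, which encodes cyclin D1, rose from 89.9 to 133 FPM (0.56, SE 0.08, edgeR adjusted p = 4.49e-05). ETV5, an ETS factor, went from a mean of 0.138 to 7.82 FPM, and ETV4 from 0.783 to 2.43 FPM. Both control means were under the floor of 0.787 FPM, so the size of these changes is uncertain. EPHA2, an Eph receptor, rose from 11.4 to 22.6 FPM. EPHA4 fell from 41.7 to 29.1 FPM. PHLDA1 did not pass with EGF (-0.16, edgeR adjusted p = 0.75) or with AII+EGF (-0.066, edgeR adjusted p = 0.92). After 24 h none of the listed genes passed. All 7 ERK output genes tested were above 0 with EGF (median log2 change 0.41) and with AII+EGF (0.48). In each comparison 3 of them had an unadjusted edgeR p under 0.05, as did 8.48% and 5.40% of all genes.

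**Figure D4:**
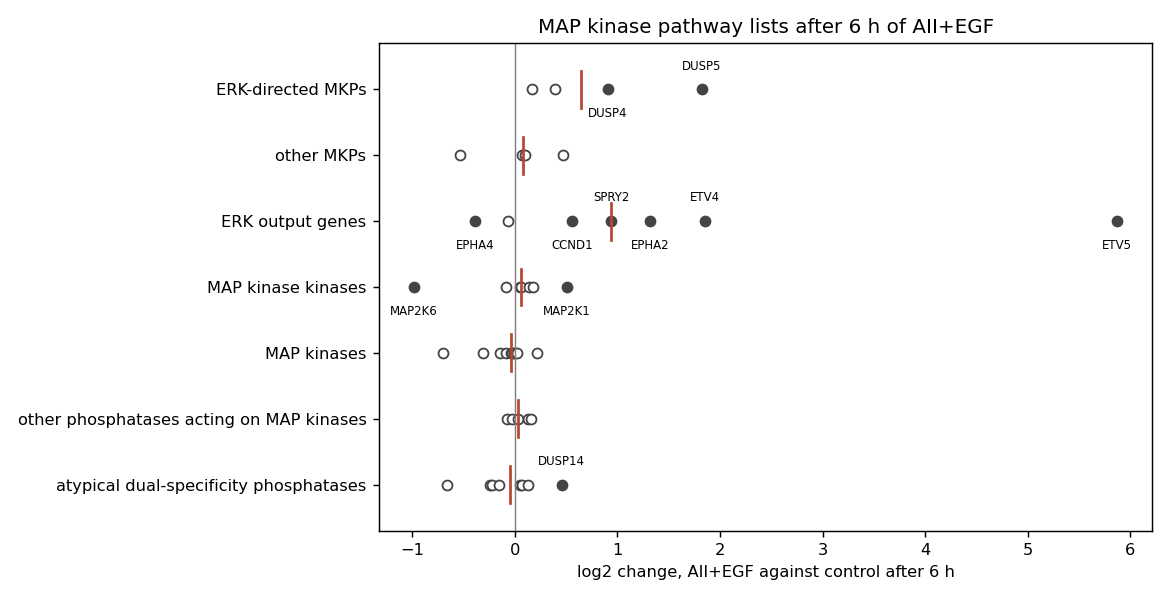
Log2 change with AII+EGF against control after 6 h (horizontal axis) for every tested gene of the 2 phosphatase classes and 5 pathway lists, with filled points and names for genes that passed and a red bar at the list median. DUSP5 (1.83) lies just below the ERK output gene ETV4 (1.85), and DUSP4 (0.91) just below SPRY2 (0.94). The 7 ERK output genes run from -0.39 to 5.87, and the MAP kinases hold no filled point. ETV5 (5.87) and ETV4 had control means under the floor, so the size of their changes is uncertain.

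The genes whose pattern was most like DUSP4 over the 16 libraries after 6 h, among 12995 genes, were PLXNA3, NAB2 and PRDM15 (Pearson's r of log2(FPM + 0.5) 0.94, 0.93 and 0.93). Those most like DUSP5 were TGFB1, PPME1 and PANX1 (0.93, 0.93 and 0.92). These coefficients describe points that share 4 conditions and library sizes, and genes with the same response to EGF correlate through it.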

How the data were processed

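The labels list 32 samples of RNA from HEK293 cells with transient AT1R expression, and 31 libraries had a column of counts (16 after 6 h, 15 after 24 h). The authors deposited raw counts per gene, not normalized. The submitters' processing notes name Trim Galore, cutadapt 1.8.1, TopHat2 2.0.14, featureCounts 1.4.6 and hg19. The strand setting of the counting is not given in the sources used here. The deposited counts were used as given, although 8 of the 15 columns after 24 h are named as filtered, with no explanation of the word.

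From the counts, TMM factors and edgeR's quasi-likelihood F test (edgeR 4.0.16, limma 3.58.1, R 4.3.3) were computed separately for each time point over all 4 conditions, with filterByExpr and Benjamini-Hochberg adjustment over all genes tested. FPM used the TMM-scaled library sizes. The phosphatases, the lists and the comparisons were chosen with earlier results of these data known. Named genes were the 10 phosphatases, list genes that passed or had the highest mean FPM, and the 3 genes most like each ERK-directed phosphatase that passed with EGF after 6 h (mean FPM of at least 5). PHLDA1 was also named, as the ERK output gene tested that did not pass after 6 h. Exon lengths came from a GENCODE annotation of GRCh37, as the merged exons of each gene. They need not match the annotation used for counting. The smallest library total, 3881841 counts after 6 h, made 3 counts equal to 0.787 FPM, taken as the floor, which covers counting error only. The fit was checked on simulated counts in which known genes were changed.

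Alternatives were DESeq2 1.42.0, its size factors, no filter on low counts, an FDR of 0.01, the study's FPM and fold filters, edgeR on the compared groups only, the library series as a fitted block, and fits that each left out 1 library. Those for single phosphatases with AII, AII+EGF against EGF and AII+EGF against AII were added after seeing the data.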

Additional observations from a re-analysis of the deposited data

Results flagged for a closer look

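In control after 24 h, DUSP4 in replicate 3 was apart from the other 3 libraries. It held 5.36 FPM (101 counts) against 6.67 to 6.93 FPM. Its gap to the nearest library made 0.832 of the range of the group, only just above the critical value used for 4 samples. Of 59 groups of values examined for the phosphatases, this was the only one set apart, where chance alone gives about 2.95.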

How the results depend on the processing

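No paired analysis was possible because replicate numbers are missing from the labels. The numbers used here follow accession order and pair nothing, and the library series was fitted as a block instead. The counts of phosphatases that passed were 2 with EGF after 6 h, 2 to 3 with AII+EGF, 2 to 4 with AII+EGF against AII, and 0 in all other comparisons, over every setting run and with each library left out in turn. The median change of the ERK-directed genes with AII+EGF after 6 h moved to 0.91 with DESeq2 and 0.93 without the filter on low counts, where DUSP6 has a value too. That of the other genes with EGF after 24 h moved to 0.23 with DESeq2 and 0.22 without the filter. With EGF after 6 h, the ERK-directed median went the other way, to 0.33 with DESeq2 and 0.34 without the filter, and was 0.40 to 0.61 when each library was left out. With AII+EGF after 24 h, leaving out each library gave 0.18 to 0.46 for the ERK-directed median and 0.19 to 0.39 for the others. DUSP1 with AII+EGF passed after 6 h with no filter (0.49) and with the series block (0.48), and DUSP9 against AII passed without the filter (0.60, adjusted p = 0.0016) and in the compared groups only (0.57, adjusted p = 0.033). Leaving out single libraries turned the sign of small changes that passed in no setting: DUSP7 (-0.010 to 0.088), DUSP8 (-0.14 to 0.016) and DUSP9 (-0.036 to 0.37) with EGF after 6 h, DUSP6 (-0.036 to 1.47) with EGF after 24 h, and DUSP7 (-0.086 to 0.26) and DUSP9 (-0.34 to 0.19) with AII+EGF after 24 h. The same held after 24 h for DUSP4 (-0.22 to 0.051) and DUSP5 (-0.033 to 0.61) in AII+EGF against EGF, and for DUSP7 (-0.062 to 0.34) and DUSP9 (-0.34 to 0.19) in AII+EGF against AII. Low counts limit DUSP2 and DUSP6, and the wide spread limits every phosphatase after 24 h.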
